A study of Homo sapiens with 18 samples.

Results

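The genes described here encode the SR and hnRNP splicing factors, chosen by name: every gene whose symbol is SRSF or HNRNP followed by its family letters or number, without the symbols of pseudogenes. This gave 36 of the 58815 genes in the counts table, 12 SR genes and 24 hnRNP genes. The rule used no measured value, but the set was chosen with earlier results of these data known. Of the 36 genes, 31 passed the filter on low counts, 11 SR genes and 20 hnRNP genes, and all tests below are on these 31.

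The RNA came from LM2, BrM3 and BoM cells, which are lines derived from the human triple-negative breast cancer line MDA-MB-231 and selected for spread to lung, brain and bone. In every line a hairpin RNA against WDR5 (shWDR5) or a control hairpin (shCtrl) was switched on with DOX, doxycycline, at 1 μg/mL for 3 days, so the control cells carried DOX too. Each of the 6 groups of line and hairpin had 3 libraries, harvested at different passages, and only 1 WDR5 hairpin was used, so other targets of that hairpin cannot be told apart from WDR5. WDR5 is a WD-repeat scaffold protein of the MLL/SET1 complexes, which methylate histone H3 at lysine 4. The comparisons asked how the loss of WDR5 changed the splicing factor genes in each line, whether that change differed between lines, and how the lines differed without it.

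SR proteins carry an RNA recognition motif and a tail rich in arginine and serine. They bind enhancer sequences in exons and help U1 and U2 snRNP find the splice sites. hnRNP proteins coat nascent transcripts and often oppose SR proteins by blocking splice sites, and both families also act in mRNA export, stability and translation. Both are abundant in dividing cells, and many of their genes hold an exon that, when included, sends the transcript to nonsense-mediated decay. The counts are per gene and do not tell such isoforms apart.

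The libraries held between 17485841 counts (BrM3 shWDR5 replicate 1) and 119667013 counts (LM2 shCtrl replicate 3). WDR5 itself was lower in every shWDR5 library: LM2 cells had a log2 fold change of -2.43 ± 0.14 (SE), BrM3 cells of -1.97 ± 0.14 and BoM cells of -2.24 ± 0.14. The shallowest library, BrM3 shWDR5 replicate 1, stood apart from its replicates in several members below, and BrM3 results that moved without it are given without it as well. VIM, KRT8, KRT18, CD44 and EGFR, genes known to be active in MDA-MB-231, had at least 193.9 CPM (counts scaled to library size with TMM factors, the trimmed mean of M-values) in all 18 libraries. Of the epithelial and receptor markers, the highest values of ESR1, PGR and CDH1 were 0.537, 0.715 and 0.601 CPM. The others were present, ERBB2 at 41.5 to 83.4 CPM and EPCAM at 4.39 to 10.1 CPM. Of 3 markers of other cell types, PTPRC reached at most 1.058 CPM and ALB 0.225 CPM, with ALB at 0 in at least 1 library. PECAM1, an endothelial gene, ranged from 0.848 to 4.67 CPM and rose in LM2 cells by 0.70 (log2, adjusted p = 0.0331). The summed level of these 3 markers was 2.453 to 2.496 CPM in LM2 shCtrl and 3.35 to 5.01 CPM in LM2 shWDR5, 1.57 to 1.91 in BrM3 shCtrl and 1.87 to 2.36 in BrM3 shWDR5, and 3.38 to 4.13 in BoM shCtrl and 3.99 to 5.26 in BoM shWDR5 libraries. Their part in the results below was not tested.

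Promoters are printed for 3 genes on which the results turn: HNRNPAB, the gene called higher (adjusted p under 0.05 by edgeR) after WDR5 knockdown in all 3 lines, HNRNPC, called higher in BrM3 cells, and HNRNPH2, the gene with a negative fold change in all 3 lines. Each line below holds the 120 bases before the start of the gene in RefSeq on GRCh38.p14, 5′ to 3′ on the strand of the gene. Capitals mark a CCAAT box (CCAAT or its complement ATTGG), an SP1 GC box (GGGCGG or CCGCCC) or an E-box (CACGTG). The windows are chr5:178204413-178204532 on the + strand for HNRNPAB, chr14:21269443-21269562 on the - strand for HNRNPC and chrX:101408102-101408221 on the + strand for HNRNPH2.
HNRNPAB: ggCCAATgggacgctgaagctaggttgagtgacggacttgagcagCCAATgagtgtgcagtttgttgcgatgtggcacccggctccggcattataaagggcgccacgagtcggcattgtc
HNRNPC: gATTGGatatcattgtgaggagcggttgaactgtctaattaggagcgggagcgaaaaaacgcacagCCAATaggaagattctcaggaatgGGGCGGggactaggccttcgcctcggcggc
HNRNPH2: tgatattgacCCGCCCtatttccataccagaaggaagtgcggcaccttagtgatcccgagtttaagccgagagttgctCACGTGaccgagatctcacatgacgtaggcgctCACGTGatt

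The HNRNPAB window held CCAAT boxes at 118 and 75 bases before the start. The HNRNPC window held CCAAT boxes at 119 and 54 bases and a GC box at 30 bases before the start, and the GENCODE annotation begins the gene inside this window. The HNRNPH2 window held a GC box at 110 bases and E-boxes at 42 and 9 bases before the start.

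Over the wider RefSeq promoters, 250 bases before to 50 bases after the start, 33 of the 36 genes had an entry. On either strand, a CCAAT box was in 17 of the 33 (51.5%, against 35.7% of 27305 promoters), a GC box in 20 (60.6% against 44.6%) and an E-box in 7 (21.2% against 7.44%). An ETS motif (CCGGAAG) was in 5 (15.2% against 10.7%). A CRE (TGACGTCA), an NRF1 and a YY1 motif were in 0 of the 33, against 1.98%, 1.36% and 0.916% of promoters. None of the motifs spelled out here contains another. The 7 genes with an E-box were HNRNPA3, HNRNPD, HNRNPDL, HNRNPH2, HNRNPH3, HNRNPM and HNRNPUL1, all hnRNP genes. None of the 7 genes called after knockdown in the fit of all libraries was among them, where 21.2% of the 33 had an E-box. This overlap is of few genes and was not tested, and HNRNPM and HNRNPH2 were called under some other settings. A match gives the letters only and was not tested for binding of any factor.

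In the control cells HNRNPA2B1 and HNRNPA1 were the most abundant members. Levels between genes are compared per length, in RPKM over the canonical GENCODE transcript. HNRNPA2B1, whose protein binds UAG-rich sequences, reached 469 ± 36.1 RPKM (SD, n = 3) in LM2, 529 ± 30.9 in BrM3 and 712 ± 36.8 in BoM cells. HNRNPA1, the classic antagonist of SR proteins, followed at 414 ± 27.3, 414 ± 13.2 and 439 ± 14.7 RPKM. In LM2 cells HNRNPK (287 ± 19.7), which binds C-rich RNA through KH domains, and HNRNPC (270 ± 15.6), which binds uridine tracts, came next. HNRNPH1 (226 ± 3.74) and HNRNPF (220 ± 13.3), whose proteins bind G tracts, were followed by HNRNPAB (162 ± 8.35 RPKM). HNRNPK did not differ from HNRNPC, nor HNRNPH1 from HNRNPF, by more than their SDs in LM2 cells. In BoM cells HNRNPC (362 ± 14.3) and HNRNPH1 (357 ± 43.0) lay above HNRNPK (287 ± 6.89).

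Among the SR genes SRSF5 was highest, at 155 ± 17.7 RPKM in LM2, 175 ± 11.9 in BrM3 and 188 ± 9.96 in BoM cells, followed in LM2 cells by SRSF3 at 108 ± 9.52 and SRSF2 at 89.1 ± 10.2. SRSF1, the founding member of the family, was lower, at 18.9 ± 2.59, 23.6 ± 1.87 and 24.8 ± 3.89 RPKM. SRSF8, a relative of SRSF2, was the lowest member that passed the filter in LM2 and BoM cells, at 10.5 ± 0.65 and 11.003 ± 0.47 RPKM, and HNRNPUL2 was lowest in BrM3 cells at 10.5 ± 0.35. HNRNPUL2 and SRSF1 share 43.4% and 30.4% of their 50-base stretches with other genes, so their levels and ranks are uncertain.

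The 5 genes that did not pass the filter were near silent. SRSF12 had 0 to 7 counts in a library and 16 counts over all 18. HNRNPCL1, a copy of HNRNPC without introns, had 2 to 24 counts in a library. HNRNPCL2, HNRNPCL3 and HNRNPCL4 had 10, 14 and 44 counts over all 18 libraries, and between 55.0% and 97.0% of their 50-base stretches occur in other genes, so their counts are uncertain.

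Together the 36 genes took 1.31 ± 0.044% of all counts in LM2 shCtrl, 1.48 ± 0.010% in BrM3 shCtrl and 1.57 ± 0.018% in BoM shCtrl libraries (SD, n = 3). After WDR5 knockdown LM2 cells had a share of 1.30 ± 0.053%, BrM3 cells of 1.58 ± 0.13% and BoM cells of 1.67 ± 0.072%. In such bulk samples fewer cells of a kind and less RNA per cell cannot be told apart. The LM2 groups overlapped, from 1.26 to 1.34% in shCtrl and from 1.24 to 1.35% in shWDR5 libraries. The BrM3 groups also overlapped: shWDR5 replicate 2 (1.47%) lay inside the shCtrl range of 1.47 to 1.49%, while shWDR5 replicate 1, the shallowest of the 18 libraries, was the highest at 1.72%. In BoM cells shWDR5 replicate 1 lay within the shCtrl range of 1.55 to 1.59%, and the other two lay at 1.72 and 1.69%.

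**Figure D1:**
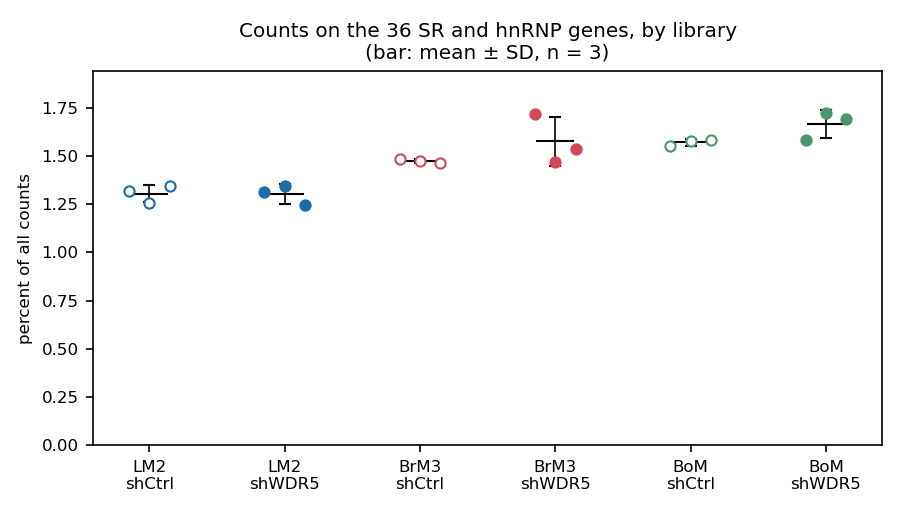
Share of all counts on the 36 SR and hnRNP genes (vertical axis, percent) in each library of the 6 groups (horizontal axis); open points are shCtrl, filled points shWDR5, and the bar is the mean ± SD of 3 libraries. The 3 LM2 shCtrl libraries (1.26 to 1.34%) lie below all BrM3 and BoM libraries, while within each line the hairpin groups overlap.

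After WDR5 knockdown, HNRNPAB was called higher in all 3 lines and 6 other members in BrM3 or BoM cells, while none was called lower in the fit of all libraries. The LM2 call of HNRNPAB was lost when any LM2 library was left out. In LM2 cells 1 of 31 members was called higher (HNRNPAB), in BrM3 cells 3 (HNRNPAB, HNRNPC and HNRNPK), and in BoM cells 6 (HNRNPAB, HNRNPH1, HNRNPK, SRSF2, SRSF5 and SRSF10), at an adjusted p under 0.05 by edgeR's quasi-likelihood test. Among all 12081 tested genes 1.48%, 2.87% and 5.41% were called higher in LM2, BrM3 and BoM cells, and 4.78%, 7.87% and 10.7% were called lower. The members called higher were 3.23%, 9.68% and 19.4% of the 31, each a count of few genes. Without BrM3 shWDR5 replicate 1, HNRNPAB, HNRNPC and HNRNPL were called higher and HNRNPH2 lower in BrM3 cells. The count of members called lower was 0 in each line, both by edgeR and by DESeq2, and 1, 0 and 0 members were lower at an unadjusted p under 0.05.

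The members leaned upwards relative to all genes under the TMM scaling. The log2 fold change was positive in 26, 28 and 29 of 31 members in LM2, BrM3 and BoM cells, in 25 members in all 3 lines, and it was negative in all 3 lines for HNRNPH2. The median log2 fold changes of the members were 0.07, 0.14 and 0.15 in LM2, BrM3 and BoM cells, against -0.00091, -0.0054 and 0.015 over all tested genes. Without BrM3 shWDR5 replicate 1 the BrM3 median was 0.099 and 26 members were positive, and without LM2 shCtrl replicate 2 the LM2 median was 0.021 and 20 were positive. The scaling itself entered this sign. TMM factors were lower in shWDR5 than in shCtrl libraries of each line, which raised every shWDR5 value by 0.076, 0.097 and 0.097 (log2) relative to total counts. With total counts only, the medians were -0.0013, 0.041 and 0.052 for the members and -0.076, -0.10 and -0.082 for all genes, and 15, 24 and 21 members were positive.

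The split of calls moved with the scaling as well. Over all genes, LM2 cells had 179 called higher and 577 lower, BrM3 cells 347 and 951, and BoM cells 653 and 1293. With total counts only these were 100 and 964, 144 and 1561, and 250 and 1828. With the trend of fold change on GC content removed they were 1101 and 1031, 1726 and 1340, and 1976 and 1572. The tested members have a median GC content of 43.8%, against 48.0% over all tested genes. With GC removed, 2, 7 and 8 members were called higher in LM2, BrM3 and BoM cells, where 9.11%, 14.3% and 16.4% of all genes were, and HNRNPH2 was called lower in LM2 and BoM cells. The median log2 fold changes of the members were then 0.10, 0.16 and 0.13, against 0.039, 0.052 and 0.062 over all genes.

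The plot of log2 fold changes by gene and line shows the members in the order of their mean change, from HNRNPAB down to HNRNPH2.

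**Figure D2:**
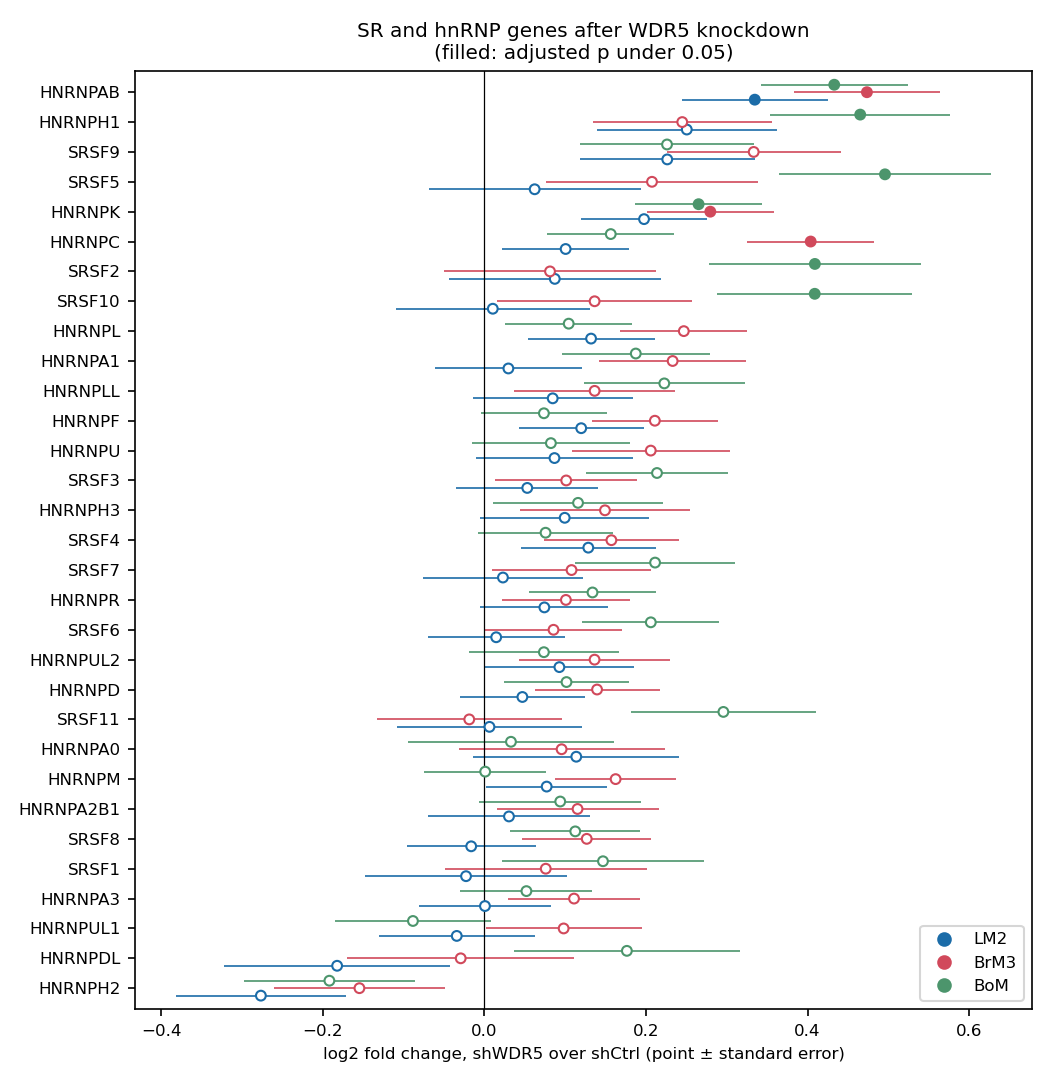
Log2 fold change of shWDR5 over shCtrl (horizontal axis, point ± SE) for the 31 tested members (vertical axis) in LM2, BrM3 and BoM cells; filled points have an adjusted p under 0.05. Most points lie to the right of 0 under TMM scaling, the 10 filled points are all on that side, and HNRNPH2 is to the left in all 3 lines.

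HNRNPAB encodes an RNA-binding protein of the hnRNP A/B group with roles in splicing and mRNA transport (chromosome 5, 178204533 to 178211163, + strand, GENCODE on GRCh38). Its levels in the 3 shCtrl libraries of LM2 cells were 285.7, 273.9 and 303.2 CPM, and in the shWDR5 libraries 372.5, 354.4 and 361.3 CPM. In BrM3 cells they were 461.5, 512.5 and 463.6 against 670.7, 636.4 and 689.0 CPM. In BoM cells they were 398.8, 422.0 and 402.1 against 462.9, 595.0 and 593.4 CPM. Every shWDR5 library lay above every shCtrl library of its line. The log2 fold change was 0.33 ± 0.09 (SE, adjusted p = 0.0349) in LM2, 0.47 ± 0.09 (0.00300) in BrM3 and 0.43 ± 0.09 (0.00369) in BoM cells, so the shWDR5 mean was 126%, 139% and 135% of the shCtrl mean. HNRNPAB was 1 of the 0.753% of tested genes called higher in all 3 lines, and 3.25% were called lower in all 3. The BrM3 call held when any library was left out, with 0.47 (0.00765) without BrM3 shWDR5 replicate 1. The BoM call held likewise, but it was lost with the BoM libraries fitted alone (0.44, adjusted p = 0.053). The LM2 call did not hold: without any 1 of the 6 LM2 libraries, or without BrM3 shCtrl replicate 3, the log2 fold change was 0.30 to 0.37 with an adjusted p of 0.0504 to 0.147, and with total counts only it was 0.26 (0.0697). The LM2 call was also lost with no filter (0.35, 0.0915) and with the LM2 libraries fitted alone (0.34, 0.0609).

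HNRNPC and HNRNPK encode abundant proteins that bind uridine-rich and cytidine-rich RNA. HNRNPC (chromosome 14, 21209136 to 21269494, - strand) had 1020.6, 988.9 and 951.3 CPM in the shCtrl and 1286.4, 1262.0 and 1369.0 CPM in the shWDR5 libraries of BrM3 cells, which did not overlap. In LM2 cells its levels were 891.2, 797.7 and 872.2 against 973.5, 920.9 and 851.1 CPM, and in BoM cells 1198.4, 1120.0 and 1120.3 against 1197.3, 1368.0 and 1267.2 CPM, and both pairs of groups overlapped. HNRNPC rose in BrM3 cells by 0.40 ± 0.08 (log2, adjusted p = 0.00332), and this call held when any library was left out (0.41, adjusted p = 0.00595, without shWDR5 replicate 1) and under all other settings run. Its log2 fold change was 0.10 ± 0.08 (0.539) in LM2 and 0.16 ± 0.08 (0.189) in BoM cells.

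HNRNPK (chromosome 9, 83968083 to 83980631, - strand) had 892.8, 783.4 and 810.3 CPM in LM2 shCtrl and 951.3, 934.3 and 965.6 CPM in LM2 shWDR5 libraries. In BrM3 cells it had 828.7, 864.6 and 871.7 against 1125.5, 982.6 and 1005.7 CPM. In BoM cells it had 822.4, 813.5 and 851.6 against 917.2, 1058.4 and 1013.7 CPM. The shWDR5 libraries lay above the shCtrl libraries in all 3 lines. HNRNPK rose by 0.28 ± 0.08 (adjusted p = 0.0292) in BrM3 and by 0.27 ± 0.08 (0.0289) in BoM cells, and its log2 fold change in LM2 cells was 0.20 ± 0.08 (0.154). Both calls were close to the threshold. The BrM3 call was lost without any of the 3 BrM3 shCtrl libraries or without shWDR5 replicate 1 or 3 (0.22 to 0.30, adjusted p from 0.0575 to 0.111). The BoM call was lost without shCtrl replicate 1 or 2 or shWDR5 replicate 2 or 3 (0.22 to 0.26, adjusted p from 0.0628 to 0.110). Both were also lost with total counts only (0.19, adjusted p = 0.143, in BrM3 and 0.17, 0.171, in BoM cells) and with no filter (0.32, 0.0950, and 0.28, 0.153), and the BoM call with the BoM libraries fitted alone (0.27, 0.136).

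HNRNPH1 binds G-rich sequences in exons and introns (chromosome 5, 179614178 to 179634784, - strand). In BoM cells its levels were 699.9, 810.0 and 891.7 CPM in the shCtrl and 1102.6, 1105.6 and 1106.8 CPM in the shWDR5 libraries. In LM2 cells they were 502.8, 516.2 and 500.7 against 597.9, 663.7 and 546.0 CPM. In BrM3 cells they were 713.6, 761.0 and 795.8 against 1071.7, 794.7 and 824.3 CPM. The groups were apart in LM2 and BoM cells and overlapped in BrM3 cells, where replicate 1 of shWDR5 stood above the other two. HNRNPH1 rose in BoM cells by 0.47 ± 0.11 (adjusted p = 0.00893), and without BoM shCtrl replicate 1, its lowest library there, the log2 fold change was 0.38 (0.0509). The log2 fold change was 0.25 ± 0.11 in LM2 (0.212) and 0.25 ± 0.11 in BrM3 cells (0.180), where it was 0.10 (0.578) without shWDR5 replicate 1.

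Its relatives did not share one direction. HNRNPF, which also binds G tracts, had log2 fold changes of 0.12, 0.21 and 0.07 in LM2, BrM3 and BoM cells, and HNRNPH3 had 0.10, 0.15 and 0.12, none of them called. Without BrM3 shWDR5 replicate 1 the BrM3 value of HNRNPH3 was 0.02. HNRNPH2, the X-linked relative of HNRNPH1, had 147.1, 124.6 and 130.7 CPM in LM2 shCtrl and 111.7, 113.9 and 106.3 CPM in LM2 shWDR5 libraries. In BrM3 cells it had 113.9, 107.5 and 106.6 against 119.3, 86.6 and 89.2 CPM, and in BoM cells 111.3, 106.2 and 116.8 against 93.2, 102.5 and 96.9 CPM. The shWDR5 libraries lay below the shCtrl libraries in LM2 and BoM cells. In BrM3 cells shWDR5 replicate 1 lay above all 3 shCtrl libraries. The log2 fold changes of HNRNPH2 were -0.28 ± 0.11 (adjusted p = 0.137), -0.15 ± 0.11 (0.400) and -0.19 ± 0.11 (0.234), so none was called. Without BrM3 shWDR5 replicate 1 it was called lower in BrM3 (-0.31, 0.0238) and in LM2 cells (-0.28, 0.0314), whose own fold change was -0.28 in both fits. HNRNPH2 shares 14.6% of its 50-base stretches with other genes, chiefly the readthrough gene RPL36A-HNRNPH2, so its counts are uncertain.

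In the edgeR fit of all libraries, SR genes were called only in BoM cells. SRSF5, SRSF10 and SRSF2 were called higher there, 3 of 11 tested SR genes, against 0 in LM2 and 0 in BrM3 cells (at an unadjusted p under 0.05 there were 0 and 1, and DESeq2 called SRSF9 in BrM3 cells). Over all tested genes 1.48%, 2.87% and 5.41% were called higher in LM2, BrM3 and BoM cells. All 11 SR genes had a positive log2 fold change in BoM cells, with a median of 0.21, against 9 of 11 (median 0.02) in LM2 and 10 of 11 (0.11) in BrM3 cells, or 8 of 11 (0.07) in BrM3 cells without shWDR5 replicate 1. The number called in BoM cells ranged from 0, without BoM shCtrl replicate 1 or shWDR5 replicate 3, to 5 over the fits with 1 library left out. With the BoM libraries fitted alone, the calls of SRSF5 (0.50, adjusted p = 0.0775), SRSF10 (0.42, 0.0652) and SRSF2 (0.42, 0.117) were lost. The 20 hnRNP genes had medians of 0.09, 0.14 and 0.10 in LM2, BrM3 and BoM cells, with 1, 3 and 3 called higher, and without BrM3 shWDR5 replicate 1 the BrM3 median was 0.14 as well.

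SRSF5 is an SR protein that promotes exon inclusion (chromosome 14, 69726900 to 69772005, + strand). Its levels in BoM cells were 268.1, 297.1 and 276.5 CPM in the shCtrl and 298.4, 404.0 and 484.7 CPM in the shWDR5 libraries. In LM2 cells they were 224.3, 209.2 and 260.7 against 228.4, 238.7 and 258.1 CPM, and in BrM3 cells 241.6, 274.9 and 268.8 against 315.2, 289.8 and 301.8 CPM. The BoM groups were apart by a small margin, with replicate 1 of shWDR5 close to the shCtrl libraries and replicate 3 well above the others. SRSF5 rose in BoM cells by 0.50 ± 0.13 (adjusted p = 0.0163). Without BoM shWDR5 replicate 3 the log2 fold change was 0.32 (0.0898), and without BoM shCtrl replicate 1 it was 0.47 (0.0571). It was 0.06 ± 0.13 (0.862) in LM2 and 0.21 ± 0.13 (0.359) in BrM3 cells.

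SRSF10, which represses splicing when it loses its phosphates in heat shock and mitosis, lies on chromosome 1 (23964347 to 23980927, - strand). In BoM cells it had 487.4, 433.4 and 511.2 CPM in the shCtrl and 592.6, 580.2 and 728.2 CPM in the shWDR5 libraries, which did not overlap. In LM2 cells it had 262.9, 233.9 and 264.8 against 252.8, 286.6 and 227.3 CPM. In BrM3 cells it had 276.4, 281.2 and 294.5 against 371.4, 281.4 and 284.2 CPM. The groups overlapped in both of those lines. SRSF10 rose in BoM cells by 0.41 ± 0.12 (adjusted p = 0.0285), and its log2 fold change was 0.01 ± 0.12 (0.980) in LM2 and 0.14 ± 0.12 (0.533) in BrM3 cells, or -0.01 (0.982) there without shWDR5 replicate 1. The BoM call was lost without BoM shCtrl replicate 1 or 2 or BoM shWDR5 replicate 3 (0.30 to 0.43, adjusted p from 0.0563 to 0.126).

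SRSF2, known as SC35 and a marker of nuclear speckles (chromosome 17, 76734115 to 76737333, - strand), was the least certain of the called members. It had 226.4, 236.6 and 303.6 CPM in the shCtrl and 280.8, 330.8 and 406.1 CPM in the shWDR5 libraries of BoM cells. These groups overlapped, since shCtrl replicate 3 lay above shWDR5 replicate 1. The log2 fold change was 0.41 ± 0.13 (adjusted p = 0.0431) in BoM, 0.09 ± 0.13 (0.799) in LM2 and 0.08 ± 0.13 (0.762) in BrM3 cells. The call was lost in 11 of the 18 fits with 1 library left out. Within BoM these were shCtrl replicates 1 and 2 and shWDR5 replicates 2 and 3 (0.26 to 0.43, adjusted p from 0.0777 to 0.199). In the other lines they were LM2 shWDR5 replicates 1 and 2, the 3 BrM3 shCtrl libraries and BrM3 shWDR5 replicates 2 and 3, whose loss left the estimate at 0.41 and the adjusted p between 0.0514 and 0.0558. MFSD11 overlaps 27.7% of the exon bases of SRSF2 on the other strand, and the strand setting of the counting is not given in the sources used here.

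Some members lay just outside the threshold. HNRNPL, which binds CA repeats, had a log2 fold change of 0.25 in BrM3 cells (adjusted p = 0.0534), and without BrM3 shWDR5 replicate 1 it was 0.31 (0.0187). SRSF9, a small SR protein, had 133.4, 151.4 and 116.9 CPM in the shCtrl and 171.7, 169.7 and 164.9 CPM in the shWDR5 libraries of BrM3 cells, which did not overlap. Its log2 fold change there was 0.33 ± 0.11 (0.0561), or 0.32 (0.0961) without shWDR5 replicate 1, and it was 0.23 ± 0.11 in LM2 (0.253) and 0.23 ± 0.11 in BoM cells (0.168). In BrM3 cells SRSF9 was called by DESeq2 (0.34, adjusted p = 0.0223) and by edgeR with GC content removed (0.38, 0.0200). It was also called there in some of the fits with 1 library left out. GATC overlaps 43.6% of the exon bases of SRSF9 on the other strand. The 2 most abundant members, HNRNPA2B1 (0.03, 0.12 and 0.09) and HNRNPA1 (0.03, 0.23 and 0.19), were not called in any line, and without BrM3 shWDR5 replicate 1 the BrM3 value of HNRNPA2B1 was 0.03.

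The plot of called members by library shows the overlap of SRSF2 in BoM cells and the low BoM shWDR5 replicate 1 of HNRNPAB and SRSF5.

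**Figure D3:**
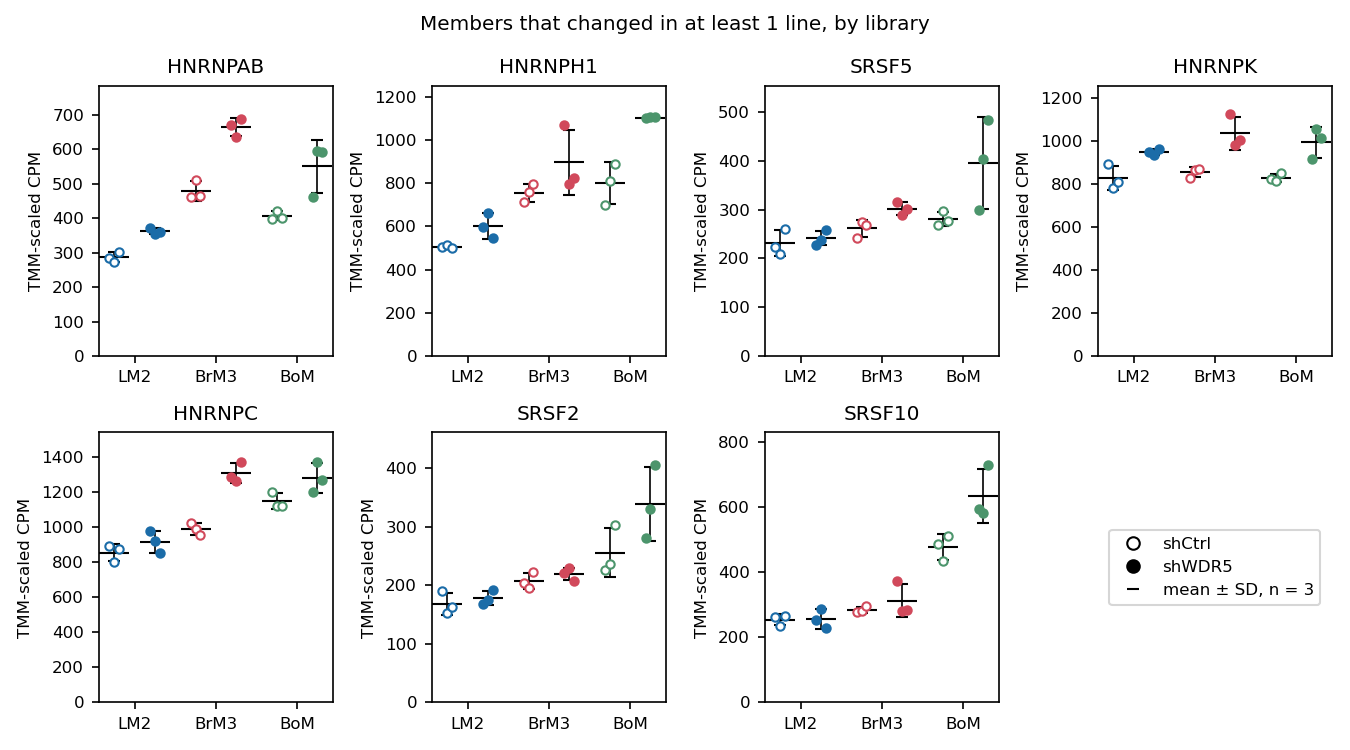
Level (vertical axis, TMM-scaled CPM, from 0) of the 7 members called higher in at least 1 line, in each library of LM2, BrM3 and BoM cells (horizontal axis); open points are shCtrl, filled points shWDR5, and the bar is the mean ± SD of 3 libraries. For HNRNPAB the filled points lie above the open points in each line, from 354.4 against 303.2 CPM at the closest in LM2 cells.

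A call in one line and not in another does not show that the lines differ, so the difference between the responses was tested. By edgeR, 0 of 31 members had a response that differed between LM2, BrM3 and BoM cells at an adjusted p under 0.05. Over all genes 0.00828% responded differently in BrM3 and LM2, 0% in BoM and LM2, and 0.00828% in BoM and BrM3. These 3 comparisons held 1, 2 and 1 members with an unadjusted p under 0.05, and DESeq2 called 0 in each. The smallest p was that of HNRNPC, which rose by 0.30 ± 0.11 more in BrM3 than in LM2 cells (unadjusted p = 0.0140, adjusted p = 1.00). The next was SRSF10, whose response was 0.40 ± 0.17 higher in BoM than in LM2 cells (0.0317, adjusted p = 0.870), close to SRSF5 at 0.43 ± 0.19 (0.0321, adjusted p = 0.872). The median SE of such a difference over all genes was 0.19 to 0.20.

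Without WDR5 knockdown, 10 to 19 of the 31 members differed between a pair of lines, and 9 of 11 SR genes were higher in BoM than in LM2 cells. Among shCtrl libraries, 13 of 31 members were higher and 3 lower in BrM3 than in LM2 cells, against 24.2% of all genes higher and 23.4% lower. Between BoM and LM2 cells 16 were higher and 3 lower (25.9% and 25.8% of all genes). Between BoM and BrM3 cells 8 were higher and 2 lower (17.8% and 19.8%). The median difference of the members was 0.18, 0.28 and 0.07 (log2), against 0.0087, -0.012 and -0.0023 over all genes. The labels name no batch, and a line and any batch of its harvest or libraries cannot be told apart. These comparisons use the same shCtrl libraries as the knockdown comparisons and as each other.

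The SR genes made up much of this. All 11 tested SR genes had a higher estimate in BoM than in LM2 cells, with a median of 0.58, and 9 were called (SRSF1, SRSF2, SRSF3, SRSF4, SRSF6, SRSF7, SRSF9, SRSF10 and SRSF11). All 11 also had a higher estimate in BrM3 than in LM2 cells, with a median of 0.33 and 7 called. With 1 library left out, 8 to 10 SR genes were called between BoM and LM2 cells and 5 to 8 between BrM3 and LM2 cells. Among the 20 hnRNP genes 7 were higher and 3 lower in BoM than in LM2 cells, with a median of 0.10, and 6 were higher and 3 lower in BrM3 than in LM2 cells, with a median of 0.07.

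The largest difference was that of SRSF10, with 262.9, 233.9 and 264.8 CPM in LM2, 276.4, 281.2 and 294.5 CPM in BrM3 and 487.4, 433.4 and 511.2 CPM in BoM shCtrl libraries. It was higher in BoM than in LM2 cells by 0.91 ± 0.12 (log2, adjusted p = 7.84e-06) and higher than in BrM3 cells by 0.75 ± 0.12 (0.000125). The BoM libraries stood above those of both other lines without overlap. SRSF11, an SR-related protein that works near the 3′ splice site, had 160.3, 148.3 and 146.6 CPM in LM2, 242.0, 220.0 and 248.6 CPM in BrM3 and 232.5, 258.7 and 290.3 CPM in BoM shCtrl libraries. It was higher by 0.64 ± 0.12 in BrM3 and by 0.78 ± 0.12 in BoM than in LM2 cells, and the BrM3 and BoM libraries overlapped.

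SRSF4 and SRSF8 separated BoM from BrM3 cells in opposite directions. SRSF4, a long SR protein, had 107.1, 116.1 and 125.0 CPM in LM2, 119.5, 125.3 and 123.3 CPM in BrM3 and 162.4, 197.2 and 181.1 CPM in BoM shCtrl libraries, and was higher in BoM than in BrM3 cells by 0.55 ± 0.08. SRSF8 had 48.2, 44.1 and 42.8 CPM in LM2, 68.6, 66.5 and 67.0 CPM in BrM3 and 48.5, 45.0 and 48.6 CPM in BoM shCtrl libraries. It was lower in BoM than in BrM3 cells by a log2 difference of -0.51 ± 0.08, and its BrM3 libraries stood above all others.

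HNRNPAB and SRSF9 differed most between BrM3 and LM2 cells, by 0.74 ± 0.09 and 0.73 ± 0.11. The SRSF9 levels were 70.3, 84.2 and 87.4 CPM in LM2, 133.4, 151.4 and 116.9 CPM in BrM3 and 130.6, 133.7 and 118.1 CPM in BoM shCtrl libraries, and those of LM2 stood below all others. HNRNPH3, a relative of HNRNPH1, had 197.1, 207.0 and 231.4 CPM in LM2, 287.5, 264.0 and 259.5 CPM in BrM3 and 312.4, 352.1 and 371.3 CPM in BoM shCtrl libraries, and was higher in BoM than in LM2 cells by 0.70 ± 0.11. The 3 lines did not overlap in HNRNPH3, in the order LM2, BrM3 and BoM. The differences between control lines given with an SE in these 3 paragraphs kept their side of the threshold under all 26 other settings.

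Fewer members were lower outside LM2 cells. HNRNPF (-0.22 and -0.27) and HNRNPH2 (-0.29 and -0.27) were called lower in both BrM3 and BoM cells, HNRNPUL1 was lower in BoM cells (-0.30) and HNRNPUL2 in BrM3 cells (-0.47). The calls of HNRNPF, HNRNPH2 and HNRNPUL1 were close to the threshold. In BrM3 cells that of HNRNPF was lost without LM2 shCtrl replicate 2 or 3 or BrM3 shCtrl replicate 1 or 3 (-0.18 to -0.22, adjusted p from 0.0634 to 0.112), and that of HNRNPH2 without LM2 shCtrl replicate 1 or BrM3 shCtrl replicate 2 or 3 (-0.22 to -0.28, adjusted p from 0.0785 to 0.1198). In BoM cells that of HNRNPF was lost without BoM shCtrl replicate 3 (-0.22, adjusted p = 0.051), and that of HNRNPUL1 without LM2 shCtrl replicate 2 (-0.25, 0.069) or BoM shCtrl replicate 3 (-0.26, 0.066). That of HNRNPH2 was lost in 10 of the 18 fits with 1 library left out (-0.20 to -0.30, adjusted p up to 0.158): without any BoM or BrM3 shCtrl library, LM2 shCtrl replicate 1 or 3, or LM2 shWDR5 replicate 1 or 2. HNRNPUL2 shares 43.4% of its 50-base stretches with other genes, chiefly HNRNPUL2-BSCL2, so its counts are uncertain.

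**Figure D4:**
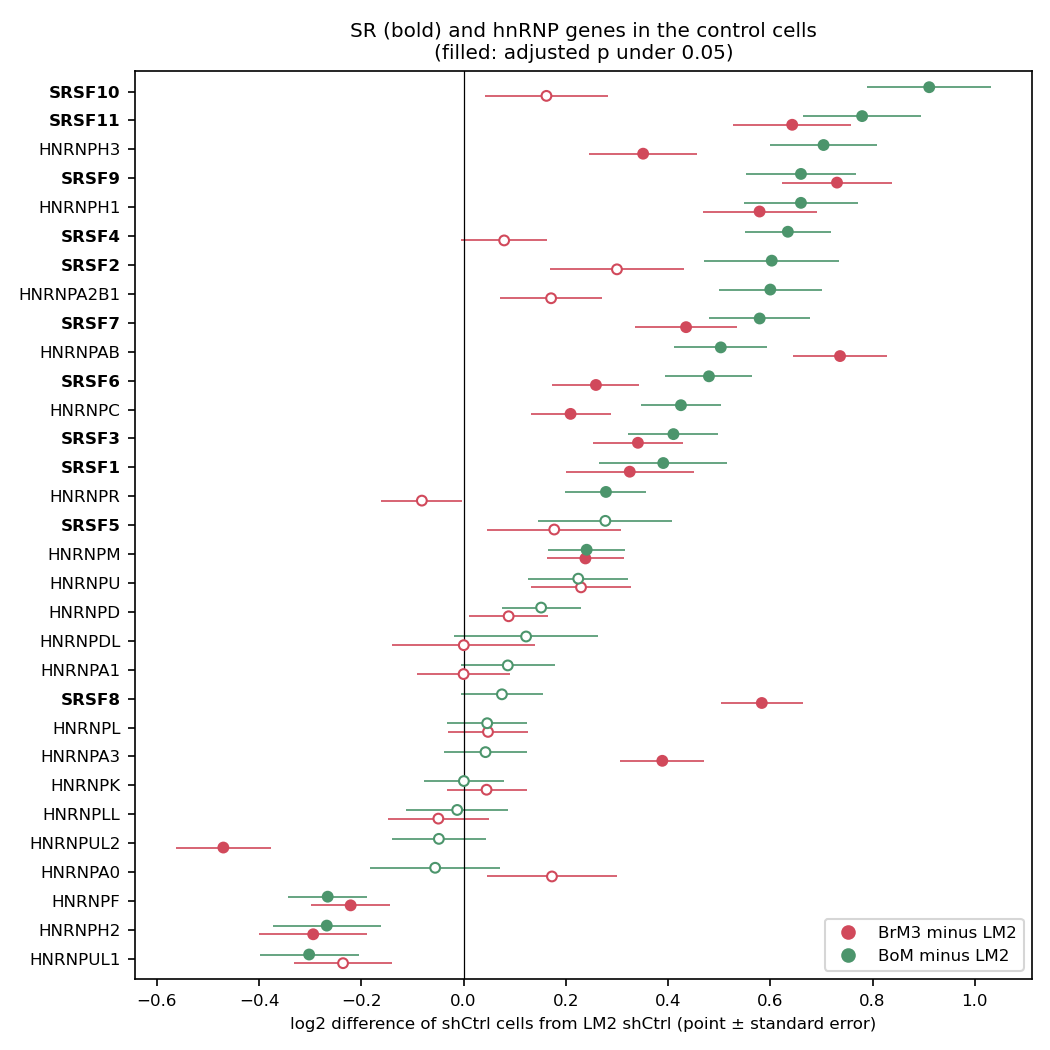
Log2 difference of BrM3 and BoM shCtrl cells from LM2 shCtrl cells (horizontal axis, point ± SE) for the 31 tested members (vertical axis, SR genes in bold); filled points have an adjusted p under 0.05. The SR genes all lie to the right of 0, with SRSF10 farthest right in BoM cells at 0.91, and the points called to the left belong to hnRNP genes.

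Other genes of splicing were counted from lists of 15 SR-like proteins and SR kinases, 25 U1, U2 and Sm core proteins, 29 proteins of the U4/U6.U5 snRNP and the catalytic spliceosome, 33 other splicing regulators, 14 proteins of nonsense-mediated decay and the exon junction, and 9 proteins of hnRNP methylation and nuclear transport. Like the members, these lists leaned upwards under the TMM scaling, with medians of 0.05 to 0.09 in LM2, 0.12 to 0.17 in BrM3 and 0.09 to 0.23 (log2) in BoM cells, or 0.10 to 0.19 in BrM3 cells without shWDR5 replicate 1. Few of their genes were called, and in LM2 cells edgeR called 0 of 3 of the lists. At an unadjusted p under 0.05 these held 1 gene that was higher and 1 lower (SR-like proteins and kinases), 3 higher (catalytic spliceosome) and 0 (other regulators). DESeq2 was fitted to all tested genes, but its calls were not counted over these lists. The lists also leaned upwards in BoM against LM2 shCtrl cells, with medians of 0.0062 to 0.22 (log2), against 0.58 for the SR genes. Called higher and lower there were 6 and 1 SR-like genes, 8 and 1 core proteins, and 11 and 1 catalytic proteins. The other lists had 11 and 4 regulators, 5 and 3 decay genes, and 4 and 2 methylation and transport genes. Of all genes 25.9% were higher and 25.8% lower.

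Of the 15 SR-like proteins and SR kinases, 1 rose in BrM3 cells, and 3 rose and 1 fell in BoM cells, against 2.87% of all genes called higher in BrM3, and 5.41% higher and 10.7% lower in BoM cells. With 1 library left out, CLK1 was called in all 18 fits, and the call of each other gene named here was lost in at least 1. PNN, a nuclear speckle protein, rose in BoM cells by 0.45 ± 0.14 (adjusted p = 0.0326). CLK3 fell there by a log2 fold change of -0.47 ± 0.12 (0.0119), while CLK1 rose by 0.64 ± 0.13 (0.00255). Both are kinases that phosphorylate SR proteins. TRA2A, an SR-like activator, rose in BoM cells by 0.30, and ACIN1, of the exon junction, rose in BrM3 cells by 0.40.

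Of 24 tested U1, U2 and Sm proteins, 1 fell in LM2 cells, 0 changed in BrM3 cells (2 higher and 1 lower at an unadjusted p under 0.05), and 1 rose and 1 fell in BoM cells. Of all genes, 4.78% were called lower in LM2, and 5.41% higher and 10.7% lower in BoM cells. SF3B3, of the U2 snRNP, had a log2 fold change of -0.45 ± 0.13 (adjusted p = 0.0475) in LM2 and -0.48 ± 0.13 (0.0196) in BoM cells, and SNRPA1, also of U2, rose in BoM cells by 0.46 ± 0.12 (0.0179). Of 28 tested catalytic spliceosome proteins, CD2BP2, of the U5 snRNP, rose in BrM3 cells by 0.29 and DHX16, an RNA helicase, fell in BoM cells (-0.38), and no other was called. Of 31 tested regulators, MBNL1 (0.51) and RBM39 (0.37) rose in BoM and NONO (0.25) in BrM3 cells, and no other was called. These were 6.45% of the regulators in BoM and 3.23% in BrM3 cells, near the 5.41% and 2.87% of all genes called higher. CD2BP2 made up 3.57% of the catalytic proteins in BrM3 cells, also near 2.87%. Each gene named in this paragraph lost a call in at least 1 of the fits with 1 library left out.

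In 2 lists a gene changed in all 3 lines, where 0.753% of all tested genes were called higher and 3.25% lower in all 3. PRMT6, which methylates arginines and histone H3, had 22.5, 22.5 and 27.1 CPM in LM2 shCtrl and 13.5, 15.1 and 16.5 CPM in LM2 shWDR5 libraries. It was 26.6, 32.3 and 30.2 against 17.96, 20.2 and 19.7 CPM in BrM3, and 30.5, 30.01 and 30.9 against 19.6, 24.8 and 22.8 CPM in BoM cells. PRMT6 was below the control in every shWDR5 library, with log2 fold changes of -0.68 ± 0.11, -0.62 ± 0.11 and -0.45 ± 0.11, and was the only one of the 9 genes of its list that was called. UPF3A, a factor of nonsense-mediated decay, had log2 fold changes of 0.30 ± 0.08 (adjusted p = 0.0223), 0.36 ± 0.08 (0.00500) and 0.23 ± 0.08 (0.0464) in LM2, BrM3 and BoM cells. Of its list of 14 genes, EIF4A3, the core helicase of the exon junction complex, rose in BrM3 cells by 0.26 ± 0.08 (0.0416), and no other was called. The 2 genes of the list called higher in BrM3 cells stand against 2.87% of all genes. Without BrM3 shWDR5 replicate 1 the value of EIF4A3 was 0.26 (0.0633). With 1 library left out, the calls of PRMT6 in LM2 and BrM3 cells and of UPF3A in BrM3 cells held in all 18 fits. The BoM call of PRMT6 was lost without BoM shWDR5 replicate 1 (-0.36, 0.0502), and UPF3A lost its call in 5 of the fits in LM2 and in 14 in BoM cells. The BoM call of PRMT6 was also lost with no filter (-0.43, 0.0573) and with the BoM libraries fitted alone (-0.44, 0.0533). In LM2 cells UPF3A was not called with no filter (0.32, 0.241), with the line alone (0.31, 0.105) or with total counts only (0.23, 0.0811).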

How the data were processed

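RNA sequencing of 18 libraries (6 groups of 3) was analysed from the counts deposited by the authors, raw reads per gene for 58815 genes, with no normalization. The library kit was TruSeq stranded mRNA, and the submitters' processing notes name CASAVA 1.8.2, STAR 2.7.0, DESeq2 and hg38. The study's methods state that gene counts were made with STAR 2.7.0 at its default parameters on the GENCODE annotation. The strand setting of the counts is not given in the sources used here. A second deposited table holds the authors' fold changes and p-values, which were not used. Libraries were grouped by title, where the cell line label writes BrM2 for BrM3. The source names disagree with the titles and were not used. Columns left unmapped numbered 0. ERCC RNA was added to the samples, but the table has 0 spike-in rows, so total RNA per cell was not analysed here.

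Counts were fitted in edgeR 4.0.16 (R 4.3.3; TMM scaling, quasi-likelihood, 6 groups in 1 fit, 12 residual degrees of freedom), with Benjamini-Hochberg adjustment over the 12081 genes whose highest normalized count exceeded 145.727, the threshold among 100 from 1 to 200 with the highest smoothed Jaccard index between replicates (mean 0.970). Genes with an adjusted p under 0.05 were called, and SEs came from the F statistic. The fit was tested on simulated counts. Chi-square comparisons of replicate counts found no duplicated library. Alternatives were DESeq2 1.42.0, RLE factors, filterByExpr or no filter, each line alone, GC content removed by loess, a replicate block within each line (coded so that a group is compared by its mean over replicates), each library left out and, chosen after seeing the data, total counts only.

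The members and the gene lists were chosen with earlier results of these data known. The genes named were WDR5, members that passed the filter (values by library for those called in all lines, the largest mean changes and the smallest p of a difference between lines), the 3 largest called differences per pair of control lines, and in each list up to 5 genes called in all lines or otherwise the 2 largest called. The other called members, HNRNPH2, HNRNPL, SRSF9 and the rest of the called genes of the lists were added after their values were seen. Other rows of the table with an SRSF or HNRNP symbol, 129 in all, held counts equal to 0.267 to 0.472% of the members' counts.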

Additional observations from a re-analysis of the deposited data

How the results depend on the processing

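Of the log2 values of WDR5 and the 31 members, recomputed under each alternative, 7358 kept their side of the threshold, 93 passed it only under the alternative, 133 lost it and 0 called values reversed. Values called in neither fit were counted as kept even where their sign changed. Members called higher in LM2 cells (1) numbered 0 with no filter, with the line alone and with total counts only, 2 with GC content removed and 3 with GC and the replicate block. In BrM3 cells (3) they numbered 6 with DESeq2, 5 with RLE factors, 5 with filterByExpr, 7 with GC removed and 11 with GC and the replicate block. In BoM cells (6) they numbered 1 with the line alone, 3 with total counts only and 10 with GC and the replicate block. Members called lower (0) numbered 1 in LM2 and 1 in BoM cells with GC removed, and likewise with GC and the replicate block. The cause of these moves was not tested.

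With 1 library left out, members called higher ranged from 0 to 1 in LM2, 2 to 5 in BrM3 and 1 to 9 in BoM cells. In LM2 cells the 0 came without any LM2 library or BrM3 shCtrl replicate 3. In BoM cells there were 1, 3 and 2 without BoM shCtrl replicate 1, BoM shCtrl replicate 2 and BoM shWDR5 replicate 3, and in BrM3 cells 5 without BoM shWDR5 replicate 1 or 3. Members called lower ranged from 0 to 1 in LM2 and in BrM3 cells, the 1 being HNRNPH2 without BrM3 shWDR5 replicate 1, and were 0 in BoM cells. Members that differed between control lines ranged from 12 to 19 (BrM3 against LM2), 15 to 21 (BoM against LM2) and 7 to 12 (BoM against BrM3), and responses that differed between lines were 0 in every fit.

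Over all genes, GC removal moved the calls higher and lower from 179 and 577 to 1101 and 1031 in LM2 cells, from 347 and 951 to 1726 and 1340 in BrM3 cells, and from 653 and 1293 to 1976 and 1572 in BoM cells. The study's methods state no pairing by replicate number, so the main fit had no such term. Deviations of same-numbered shCtrl and shWDR5 libraries correlated with r from -0.18 to 0.73, with 7 of 9 pairs over 0.1, and 6 of 9 shCtrl libraries correlated best with their own number. Whether the numbers pair the samples was not settled. With the replicate block, which left 6 residual degrees of freedom, 1, 4 and 7 members were called higher in LM2, BrM3 and BoM cells, and 17, 20 and 12 members differed between BrM3 and LM2, BoM and LM2, and BoM and BrM3 shCtrl cells (16, 19 and 10 without it). Of all genes, 3.86%, 6.29% and 11.2% were called higher in LM2, BrM3 and BoM cells with the replicate block. With GC and the replicate block, 16.6%, 22.9% and 24.4% of all genes were called higher in LM2, BrM3 and BoM cells.

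The 31 tested members were well counted, but the part of library depth in the results was not tested. The limits are 3 libraries a group, 1 hairpin, passages as the only replicates, scaling without spike-ins, and gene counts that do not separate isoforms or, for SRSF1 (30.4%), HNRNPA1 (12.3%), HNRNPA3 (14.4%) and SRSF6 (14.4%), reads from 50-base stretches shared with other genes. NFE2L2 overlaps 53.7% of the exon bases of HNRNPA3 on the other strand.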
